A study of Mus musculus with 9 samples.

Results

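The 39 Hox genes of the mouse were examined in cultured cells sold as pulmonary microvascular endothelial cells of the mouse, a cell type that forms the inner wall of small lung vessels. The 39 are every protein-coding gene that the GENCODE M21 annotation names Hoxa, Hoxb, Hoxc or Hoxd followed by a number, out of 21911 protein-coding genes and 56620 genes in the table. They were chosen by name and not by level. RNA was measured in 9 libraries of cells kept for 48 h, 3 in room air with 21% oxygen (RA), 3 in hyperoxia with 85% oxygen (HO) and 3 in 85% oxygen with 100 ng/ml recombinant WNT5A, a secreted WNT protein (HO-rWNT5A). No genetic change is named for any group. The labels do not state whether libraries within a group are separate cultures, and p-values therefore describe the spread among the libraries and nothing wider. The roughly estimated depth was 21300000 to 26500000 fragments a library, which puts about 42.6 to 53.0 fragments behind 1 FPKM of a transcript of 2000 bases. FPKM is the number of fragments relative to transcript length and to all mapped fragments of the library. Values below are FPKM summed over the transcripts of a gene, with each library divided by its median ratio to the others.

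Hox genes encode homeodomain transcription factors that tell cells where they lie along the axis from head to tail. They stand in 4 clusters, and each gene carries a paralog number that gives its place in the cluster. Genes with low numbers are used from the hindbrain and neck backwards, genes with middle numbers from the chest backwards, and genes with high numbers only in the lower back, the tail, the hindgut and the ends of the limbs. Cells taken from adult tissue and grown in culture often keep the Hox genes of the place they came from, and for that reason the set in use is read as a positional code. Hox proteins bind DNA together with PBX and MEIS proteins, which belong to the TALE family of homeodomain proteins.

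The labelled cell type was checked against its markers. Of 16 pan-endothelial genes, 3 had a mean of at least 1 FPKM and 2 reached 5 FPKM. Pecam1, an adhesion molecule of endothelium, had 0.0930 ± 0.035 FPKM (SD, n = 9), and Cdh5, the endothelial cadherin, had 0.0543 ± 0.018. Flt1, a VEGF receptor, had 37.9 ± 4.6 FPKM. Of 10 markers of pericytes and smooth muscle, 8 reached 5 FPKM, led by Acta2 at 1574 FPKM, while Rgs5 had 0.757 and Myh11 had 0.236. Of 7 epithelial markers, 4 reached 5 FPKM, and of 8 fibroblast markers, 3 did. Most endothelial markers thus go against the label, and the other lists do not single out 1 cell type. The cells are called here by their label only as a name.

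The microRNAs encoded inside the Hox clusters are shown first, because some of their known targets are Hox genes. Of 7 microRNA genes annotated inside the Hox clusters, 6 had a mature sequence in RefSeq (GRCm38.p6). The lines give the mature 5p strands, 5′ to 3′, with the seed, bases 2 to 8, in capitals. The seed is the part of a microRNA that pairs with its target.
mmu-miR-196a-5p: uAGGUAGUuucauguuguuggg
mmu-miR-196b-5p: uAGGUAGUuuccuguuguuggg
mmu-miR-10a-5p: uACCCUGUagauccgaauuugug
mmu-miR-10b-5p: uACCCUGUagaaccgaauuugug

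The miR-196 sequences shared one seed and the miR-10 sequences another. miR-196 is known in the mouse to cleave the Hoxb8 transcript at a site that pairs along nearly its whole length. That site lies after the Hoxb8 coding sequence, on the plus strand at chr11:96284888-96284909 (GRCm38). Of its 22 bases, 21 form Watson-Crick pairs with miR-196a, in capitals, and the remaining 1 forms a wobble pair.
Hoxb8 site: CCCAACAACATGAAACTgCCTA

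The exact seed match of miR-196a (ACTACCT) was found after the stop codon of 9 of the 39 Hox genes, against 6.1% of 21045 protein-coding genes, with median lengths searched of 966 and 960 bases. Hoxa5, Hoxa7, Hoxb6, Hoxb7 and Hoxc8 were among them. The match of miR-10 (ACAGGGT) was found in 4 Hox genes, Hoxa3 and Hoxb3 among them, and in 12.5% of the protein-coding genes. A match is a run of letters and not a measured site. Mir196a-1, which lies between Hoxb13 and Hoxb9, had 13.8 ± 2.4 FPKM (SD, n = 9), Mir10a, next to Hoxb4, had 8.36 ± 1.5, Mir196a-2 had 2.93 ± 0.77 and Mir10b had 1.85 ± 0.71. FPKM of these short genes in a total RNA library does not give the level of the mature microRNA.

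Of the 39 Hox genes, 32 had a mean of at least 1 FPKM and 22 reached 5 FPKM. Among all protein-coding genes 50.6% had at least 1 FPKM and 35.2% reached 5 FPKM, against 82.1% and 56.4% of the Hox genes. All 4 clusters were in use. At least 1 FPKM was reached by 10 of 11 Hoxa genes, 8 of 10 Hoxb genes, 8 of 9 Hoxc genes and 6 of 9 Hoxd genes. Every annotated member of paralog groups 2 to 11 passed 1 FPKM. Group 12 had no member at 1 FPKM and group 13 passed only through Hoxc13. In replicates 1, 2 and 3 of each group, in scaled FPKM, Hoxc13 had RA values of 1.08, 0.815 and 0.541, HO values of 1.39, 1.93 and 1.77 and HO-rWNT5A values of 1.38, 1.40 and 1.72. It reached a mean of 1 FPKM in both groups at 85% oxygen and not in RA, where 1 of 3 libraries was above 1 FPKM.

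**Figure D1:**
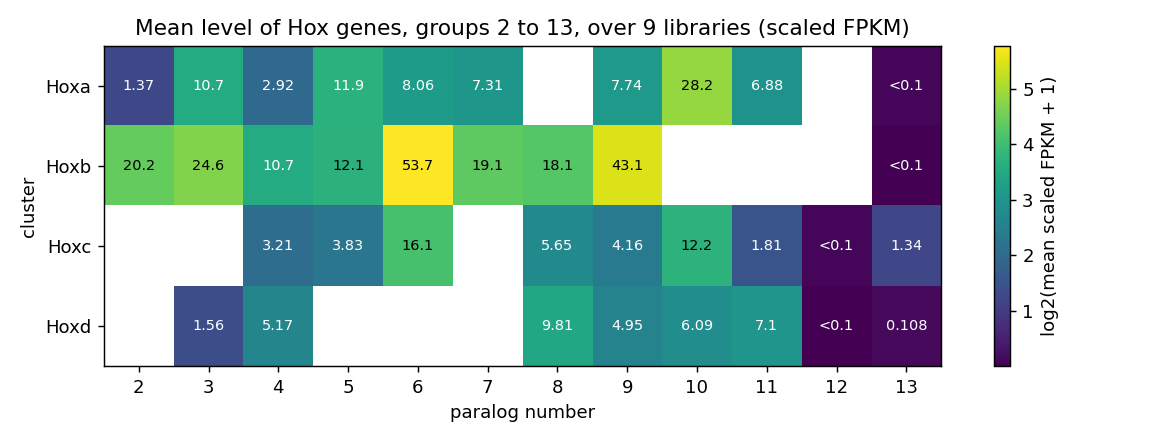
Mean scaled FPKM of the 36 Hox genes of paralog groups 2 to 13 over 9 libraries, with clusters as rows and paralog numbers as columns. White squares have no gene, and colour is log2 of the mean plus 1. The Hoxb row holds the highest values, 53.7 for Hoxb6 and 43.1 for Hoxb9, and columns 12 and 13 are near 0 except Hoxc13 at 1.34.

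The Hoxb cluster gave 54.2% ± 1.1 of the summed Hox FPKM (SD, n = 9), Hoxa 23.4% ± 1.1, Hoxc 13% ± 0.79 and Hoxd 9.38% ± 0.48. By paralog number, groups 1 to 4 gave 22.1% of the sum, groups 5 to 8 gave 44.6%, groups 9 to 11 gave 32.9% and groups 12 and 13 gave 0.423%. Group 6 held the largest share of any single paralog number with 20.9%, followed by group 9 with 16.1% and group 10 with 12.5%.

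The genes at the ends of the range marked the limits of the pattern. Hoxb1, a hindbrain gene, had a mean of 0.00740 FPKM and was listed at 0 in 5 of 9 libraries. Hoxd1 had 0.0163 FPKM. At the tail end, Hoxa13 and Hoxd13, which pattern the digits and the lower urogenital tract, had 0.0592 and 0.108 FPKM, Hoxb13 had 0.00309, Hoxc12 had 0.0686 and Hoxd12 had 0.00145. The step from the last gene of groups 1 to 11 in each cluster to its neighbour was steep. Hoxa11 at 6.88 FPKM was 116-fold above Hoxa13, and Hoxc11 at 1.81 FPKM was 26.4-fold above Hoxc12. Hoxb9 at 43.1 FPKM stood beside Hoxb13, and Hoxd11 at 7.10 FPKM beside Hoxd12. In all 4 pairs the lowest of 9 libraries for the first gene lay above the highest for the second. Hoxc13, beyond Hoxc12, had a mean of 1.34 FPKM, 19.5-fold above Hoxc12, so the Hoxc cluster had no clean limit at this step.

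The windows from 250 bases before to 50 bases after the start of Hoxd11 and of Hoxd12 are shown because this step was from 7.10 to 0.00145 FPKM between neighbours. Both lie on the plus strand, at chr2:74682073-74682372 and chr2:74674763-74675062 (RefSeq, GRCm38.p6). Capitals mark the motif TGATNNAT, a sequence bound by PBX and HOX proteins together, on either strand.
Hoxd11: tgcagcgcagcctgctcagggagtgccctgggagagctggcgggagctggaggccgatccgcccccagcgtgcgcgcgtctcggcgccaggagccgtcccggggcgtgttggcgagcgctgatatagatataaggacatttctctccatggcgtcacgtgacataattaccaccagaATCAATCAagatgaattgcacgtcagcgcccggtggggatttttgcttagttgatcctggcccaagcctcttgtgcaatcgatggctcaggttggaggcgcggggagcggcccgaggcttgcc
Hoxd12: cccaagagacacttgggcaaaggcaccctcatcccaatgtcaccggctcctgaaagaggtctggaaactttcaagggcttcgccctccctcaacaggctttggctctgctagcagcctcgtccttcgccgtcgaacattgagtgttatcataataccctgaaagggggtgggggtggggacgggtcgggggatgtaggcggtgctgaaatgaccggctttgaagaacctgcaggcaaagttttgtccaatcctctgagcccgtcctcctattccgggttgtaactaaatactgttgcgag

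The motif was present in this Hoxd11 window, not in the window of the other listed Hoxd11 start, and not in the Hoxd12 window. It was found in 4 of 24 Hox promoter windows and in 8.85% of 32851 windows of all genes. Among the Hox windows it was in 3 of 19 of genes at 1 FPKM or more (15.8%). It was also in 1 of 5 windows of Hox genes under 1 FPKM (20%), so its presence did not follow the level. Motif letters in a window do not show that a factor binds there, and their absence shows only that these letters are not in these 300 bases.

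The Hox genes of the front and chest groups are described first. The values in this and the following paragraphs are scaled FPKM in replicates 1, 2 and 3 of each group. Hoxb2, a gene of the hindbrain and neck, had RA values of 19.5, 19.5 and 20.4, HO values of 22.9, 21.8 and 19.6 and HO-rWNT5A values of 19.8, 19 and 19.1. Hoxb3 had RA values of 24.1, 26.5 and 25.9, HO values of 23.7, 20.8 and 24.8 and HO-rWNT5A values of 27.4, 22.9 and 24.7. Hoxa3, which the mouse needs for its thymus and parathyroid glands, had RA values of 11.2, 12.2 and 12.3, HO values of 8.95, 8.80 and 10.4 and HO-rWNT5A values of 10.6, 11.9 and 10.4. All RA libraries lay above all HO libraries for Hoxa3, and the groups overlapped for Hoxb2 and Hoxb3. Hoxb4, known for its use in expanding blood stem cells, had RA values of 9.67, 10.9 and 11.1, HO values of 9.95, 9.10 and 11.1 and HO-rWNT5A values of 11.1, 11.8 and 11.3. Hoxd4, a gene of the neck vertebrae, had RA values of 5.48, 6.79 and 6.90, HO values of 4.42, 4.65 and 4.36 and HO-rWNT5A values of 4.22, 4.81 and 4.89. The RA libraries of Hoxd4 were higher than every other library. The lower members of these groups had means of 1.37 FPKM for Hoxa2, 1.56 for Hoxd3, 2.92 for Hoxa4 and 3.21 for Hoxc4.

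Groups 5 to 8 held 10 of their 11 members at 5 FPKM or more. Hoxa5, which is needed for normal lung development in the mouse, had RA values of 11.2, 11.2 and 12, HO values of 12.1, 11.6 and 12.1 and HO-rWNT5A values of 12, 12.1 and 13.3. Hoxb5, also used in lung mesenchyme, had RA values of 11.3, 13.3 and 13.2, HO values of 10.4, 9.74 and 13.3 and HO-rWNT5A values of 12.3, 13.4 and 11.9. The groups overlapped for both. Hoxb6, the highest Hox gene, had RA values of 45.2, 50.8 and 47.8, HO values of 55, 55.4 and 55 and HO-rWNT5A values of 55, 61.3 and 57.6. Its RA libraries were the lowest of the 9. Hoxc6, used in motor neurons of the forelimb level, had RA values of 13.5, 15.6 and 14, HO values of 16.1, 14.2 and 15.9 and HO-rWNT5A values of 17.6, 20.4 and 17.7. All HO-rWNT5A libraries of Hoxc6 lay above all others. Hoxa6 had RA values of 7.92, 9.86 and 9.28, HO values of 7.03, 6.27 and 8.31 and HO-rWNT5A values of 7.39, 8.97 and 7.46. Hoxb7 had RA values of 16.7, 17.2 and 18.8, HO values of 20.1, 21.3 and 18.8 and HO-rWNT5A values of 21, 18.4 and 20.0. Hoxa7 had RA values of 7.90, 6.95 and 6.98, HO values of 8.09, 6.96 and 7.42 and HO-rWNT5A values of 6.72, 7.42 and 7.33. For Hoxa6 and Hoxa7 the groups overlapped, and for Hoxb7 all RA libraries lay below all HO libraries. Hoxb8 had RA values of 16.3, 15.9 and 17, HO values of 21.6, 22.4 and 15.3 and HO-rWNT5A values of 18.9, 18 and 17.5. Hoxc8, a gene of the chest vertebrae, had RA values of 5.62, 5.66 and 6.12, HO values of 5.35, 4.91 and 6.25 and HO-rWNT5A values of 4.92, 6.29 and 5.73. Hoxd8 had RA values of 9.81, 9.07 and 9.54, HO values of 10.8, 11.2 and 9.87 and HO-rWNT5A values of 9.86, 9.33 and 8.85. HO replicates 1 and 2 were the highest for Hoxb8, and HO replicate 3 was the lowest. For Hoxd8 all HO libraries lay above all RA libraries. Hoxc5 was the member under 5 FPKM, with a mean of 3.83.

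The genes of groups 9 to 11 were also in use. Hoxb9 had RA values of 39.9, 39.1 and 41.4, HO values of 44.5, 43.2 and 43.5 and HO-rWNT5A values of 47.5, 43.9 and 44.7. Hoxa9, a gene of blood progenitors and of leukaemia, had RA values of 7.51, 7.94 and 7.80, HO values of 7.55, 6.51 and 8.48 and HO-rWNT5A values of 7.94, 8.36 and 7.58. The RA libraries of Hoxb9 lay below all others, and those of Hoxa9 overlapped. Hoxa10, which patterns the lumbar vertebrae and the uterus, had RA values of 29.4, 27 and 28, HO values of 29.4, 27.6 and 29.6 and HO-rWNT5A values of 28.2, 27.7 and 27.1. It varied least of the 22 genes at 5 FPKM or more, with a coefficient of variation of 3.54% over the 9 libraries, against a median of 8.74%. Hoxc10, used in motor neurons of the hindlimb level, had RA values of 10.9, 10.7 and 10.7, HO values of 13.1, 12.9 and 10.9 and HO-rWNT5A values of 13.7, 14 and 13.2. Hoxd10 had RA values of 6.43, 6.68 and 7.06, HO values of 6.03, 4.80 and 5.80 and HO-rWNT5A values of 6.73, 5.63 and 5.63. The RA libraries of Hoxc10 were at the low end, together with HO replicate 3. For Hoxd10 all RA libraries lay above all HO libraries. Hoxa11 and Hoxd11 act together in the kidney and the forearm. Hoxa11 had RA values of 6.77, 6.63 and 6.14, HO values of 7.77, 7.02 and 6.36 and HO-rWNT5A values of 7.28, 6.93 and 6.97. Hoxd11 had RA values of 7.13, 6.78 and 6.11, HO values of 8.59, 7.12 and 6.92 and HO-rWNT5A values of 8.05, 6.41 and 6.81. For Hoxa11 all HO-rWNT5A libraries lay above all RA libraries, while HO overlapped both, and for Hoxd11 all groups overlapped. Hoxd9, Hoxc9 and Hoxc11 had means of 4.95, 4.16 and 1.81 FPKM. Among the most abundant genes, ranges over the 9 libraries mostly did not separate neighbours in the order of levels. The ranges of Hoxb6 and Hoxb9 overlapped, and Hoxb9 lay clear of Hoxa10. From Hoxa10 down to Hoxc13 each range overlapped the next. Compared within each library, Hoxb6 lay above Hoxb9 and Hoxa10 above Hoxb3 in all 9.

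**Figure D2:**
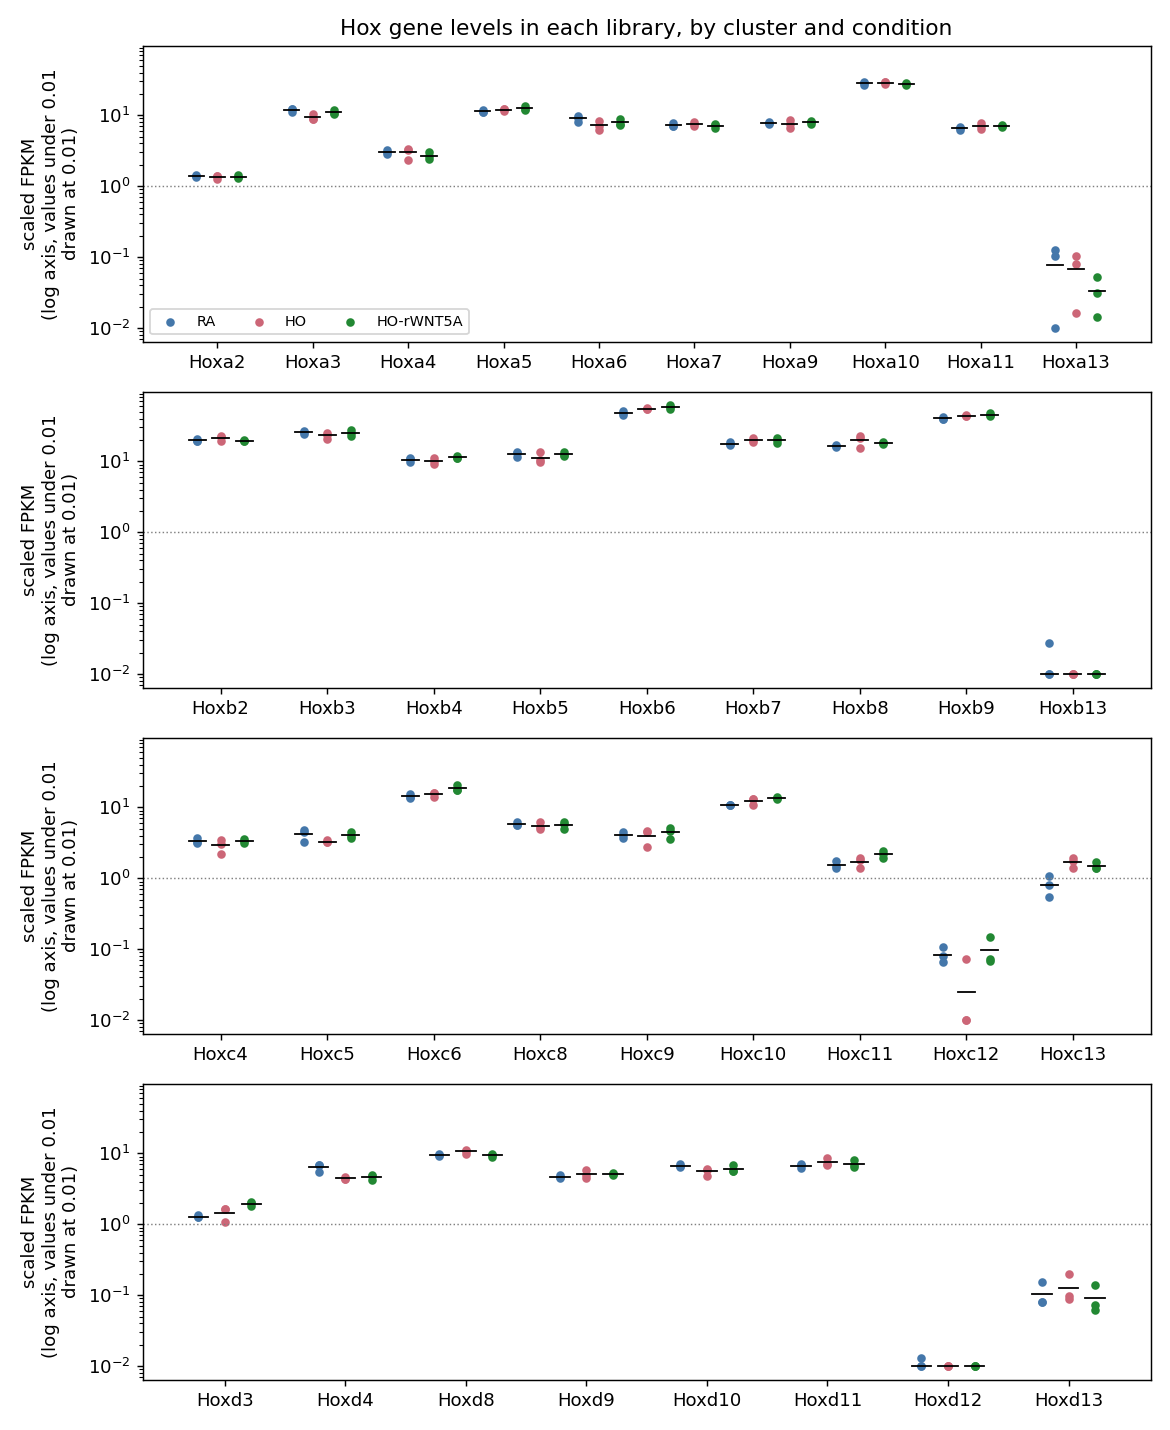
Scaled FPKM of the 36 Hox genes of paralog groups 2 to 13 in each library on a log axis, 1 panel per cluster, with RA, HO and HO-rWNT5A as coloured points, group means as black bars and 1 FPKM as a dotted line. Values under 0.01 are drawn at 0.01. Points of the 3 conditions lie close together for most genes above 1 FPKM. Hoxc13 runs from 0.541 in RA to 1.93 in HO, and genes near 0 spread widely on this axis. Means of genes of 1 cluster also differ widely, from 0.0592 for Hoxa13 to 28.2 for Hoxa10.

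As background, a set that runs through group 11 and stops before groups 12 and 13 belongs to the trunk down to the lumbar and sacral level, and lung tissue is known for groups up to the chest level, Hoxa5 and Hoxb5 among them. The pattern here held the chest genes and the genes behind them, and also Hoxc13 of group 13 with a mean of 1.34 FPKM over all libraries. No sample of known position was measured, so the match to a body level was not tested. Genes that mark organs by other means were read beside it. Of 12 genes of the foregut and lung mesenchyme, 5 had at least 1 FPKM and none reached 5 FPKM. Those 5 were Gata6 with a mean of 3.31 FPKM, Wnt2 with 1.94, Tbx3 with 1.83, Foxf2 with 1.62 and Fgf10 with 1.04. Nkx2-1, the regulator of lung epithelium, had 0.00156, Tbx4 had 0.0372, and Tbx5 and Sftpc were listed at 0. Of 14 genes of the intermediate mesoderm and kidney, 13 had at least 1 FPKM and 5 reached 5 FPKM. Pax2, a kidney regulator, had 37.4 ± 5.2 FPKM (SD, n = 9), Pax8 had 26.5 ± 2.1 and Wt1 had 23.4 ± 3.4. Sall1 and Emx2 had 8.41 and 5.37, the others at 1 FPKM or more had 1.38 to 2.96, and Tcf21 had 0.481. Of 9 limb genes 3 had at least 1 FPKM, and of 6 heart genes none. Their part in the Hox levels was not tested.

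Partners and regulators of Hox genes were read at the same limit of 1 FPKM, which 50.6% of all protein-coding genes reached. Of 11 TALE genes, 10 had at least 1 FPKM, with Tgif1 at 42.5 FPKM, Meis2 at 15.5 and Pbx2 at 11.5. Of 27 Polycomb and Trithorax genes, which keep Hox clusters silent or active, 24 had at least 1 FPKM, led by Phc2 at 99.6 FPKM. Of 19 genes of the retinoic acid pathway, the signal that opens Hox clusters from the front, 12 had at least 1 FPKM, and Aldh1a2, which makes retinoic acid, had 59.5 FPKM. None of 9 homeobox genes that flank the clusters or belong to the ParaHox family, Evx1, Evx2, Cdx1, Cdx2 and Cdx4 among them, reached 1 FPKM. Of 12 signals, receptors and regulators of the trunk axis, 6 had at least 1 FPKM, led by Fgfr1 at 101 FPKM. Fgf8, T, Tbx6, Lin28a, Lin28b and Sall4 did not reach 1 FPKM.

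Inside the clusters, 49 other genes are annotated, and 11 had at least 1 FPKM. The highest was Gm53, a long noncoding RNA gene on the plus strand at chr11:96251105-96264868 between Hoxb13 and Hoxb9, with mean levels of 38.7 FPKM (RA), 45.7 FPKM (HO) and 51.5 FPKM (HO-rWNT5A). Hoxa11os, antisense to Hoxa11, had 4.11 FPKM and Hotairm1, an antisense gene of the Hoxa cluster, had 3.97. Hotair, a noncoding RNA of the Hoxc cluster, had 0.101 FPKM. Whether strand was used in counting is not given in the sources used here, so fragments of Hoxa11 and Hoxa11os cannot be told apart, nor those of other genes and their antisense partners.

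The comparison of HO with RA asked what 85% oxygen changed. One gene of the 32 that were tested passed, Hoxd4, which was lower in HO with means of 4.48 against 6.39 FPKM, a log2 fold change of -0.43 ± 0.089 (SE) on the log2(FPKM + 1) scale (limma, adjusted p = 0.0428). Of all 13831 genes tested, 1.97% passed, so 1 of 32 Hox genes is near that background. The next were Hoxc13, the gene of hair and nails, with means of 1.70 against 0.811 FPKM and a log2 fold change of 0.58 ± 0.13 (limma, adjusted p = 0.0505), and Hoxa3 with -0.31 ± 0.077 (limma, adjusted p = 0.0720). Hoxc13 passed the filter on low values only through the groups at 85% oxygen, where it is high, so its test is not support for a difference from RA, and it is among the genes in the next 2 counts. At an unadjusted p under 0.05 there were 11 Hox genes, 34.4% of those tested, against 18.1% of all genes. The 3 HO and 3 RA libraries did not overlap for 9 of 32 Hox genes (28.1%), against 21.4% of all genes. The call of Hoxd4 was lost without RA replicates 1, 2 or 3 (limma, adjusted p = 0.0532, 0.154 and 0.158) and without HO replicates 1 or 2 (limma, adjusted p = 0.0789 and 0.0836). Without HO replicate 3, 4 Hox genes passed, Hoxa3, Hoxb8, Hoxc10 and Hoxd4, and without HO replicate 1 Hoxc13 passed alone (limma, adjusted p = 0.0497).

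Hoxd4 has an annotated transcript, Hoxd4-203, that begins at the first exon of Hoxd3 and shares 388 exonic bases with Hoxd3-203. It had RA values of 2.08, 3 and 3.20, HO values of 0.968, 2.34 and 0.831 and HO-rWNT5A values of 0.859, 1.07 and 0.833. Hoxd3-203 had RA values of 0.409, 0.339 and 0.378, HO values of 0.970, 0.321 and 0.974 and HO-rWNT5A values of 1.15, 1.32 and 1.22. HO replicate 2 stood with the RA libraries for both transcripts, and the other HO libraries stood with HO-rWNT5A. The main coding transcript, Hoxd4-201, had RA values of 2.90, 3.60 and 3.43, HO values of 2.97, 2.11 and 3.17 and HO-rWNT5A values of 3.22, 3.07 and 3.24. When protein-coding transcripts alone were summed, a choice made after the data were seen, the Hoxd4 difference between HO and RA was -0.20 (limma, adjusted p = 0.450). The sum of Hoxd3 and Hoxd4 was 6.74, 8.13 and 8.15 FPKM in RA and 6.03, 5.73 and 5.99 in HO, and these did not overlap. How fragments of the shared exon were split between the 2 genes was not tested. The shared start lies in this window on the plus strand at chr2:74711743-74712042 (RefSeq, GRCm38.p6), which holds no TGATNNAT motif.
Hoxd3: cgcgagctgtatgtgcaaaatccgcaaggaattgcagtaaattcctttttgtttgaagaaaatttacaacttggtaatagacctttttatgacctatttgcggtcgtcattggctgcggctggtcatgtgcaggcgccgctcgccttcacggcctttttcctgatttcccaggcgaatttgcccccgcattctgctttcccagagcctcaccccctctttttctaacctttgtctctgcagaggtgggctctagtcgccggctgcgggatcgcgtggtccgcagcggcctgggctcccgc

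**Figure D3:**
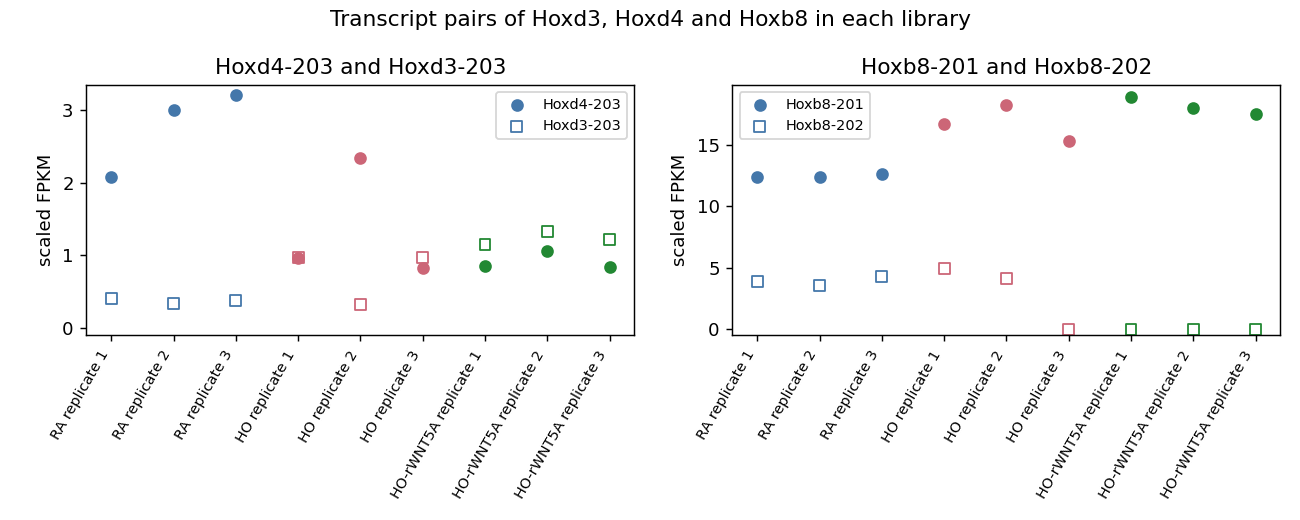
Scaled FPKM of 2 pairs of transcripts in each of 9 libraries, coloured by condition, with the first of each pair as filled circles and the second as open squares. Hoxd4-203 is high in RA and HO replicate 2, where Hoxd3-203 is low, and Hoxb8-202 is listed at 0 in HO replicate 3 and all HO-rWNT5A libraries.

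Other genes also changed the mix of their transcripts between libraries. Hoxb8-202, a short coding transcript, had RA values of 3.89, 3.54 and 4.30, HO values of 4.91, 4.13 and 0 and HO-rWNT5A values of 0, 0 and 0. Hoxb8-201 had RA values of 12.4, 12.3 and 12.7, HO values of 16.7, 18.3 and 15.3 and HO-rWNT5A values of 18.9, 18 and 17.5. Libraries with Hoxb8-202 at 0 included HO replicate 3, which is not of the HO-rWNT5A group. An exact 0 in an FPKM table can be a failed estimate. Of 87 transcripts of the 39 genes, 52 had at least 1 FPKM, and 15 of these were not protein coding. Hoxb5 was mostly the retained-intron transcript Hoxb5-202, with 8.78 FPKM against 3.35 for the coding Hoxb5-201. Hoxa3 was split between coding Hoxa3-201 with 4.71 FPKM, retained-intron Hoxa3-203 with 2.87 and Hoxa3-204 with 2.77. Hoxb6 was split between 2 coding transcripts, 24.3 FPKM for Hoxb6-201 and 29.4 for Hoxb6-202. Hoxa10 had coding Hoxa10-202 with 13.1 FPKM and Hoxa10-201 with 8.92, and the processed transcripts Hoxa10-204 with 5.02 and Hoxa10-203 with 1.17. Hoxb3 had 4 transcripts at 4.03 to 11.5 FPKM, and Hoxc6 had coding Hoxc6-201 with 8.54 and 2 processed transcripts, Hoxc6-203 with 4.84 and Hoxc6-202 with 2.73. Hoxd11 had coding Hoxd11-202 with 3.95 FPKM and the processed Hoxd11-201 with 3.15. In Hoxa9, Hoxa7, Hoxb2, Hoxb7, Hoxc8 and Hoxd8 a coding transcript led, Hoxa9-201 with 4.95, Hoxa7-201 with 4.65, Hoxb2-201 with 17.3, Hoxb7-201 with 17.7, Hoxc8-201 with 3.85 and Hoxd8-201 with 8.13 FPKM. The second transcripts of these genes were Hoxa9-205 with 2.21, Hoxa7-205 with 1.21, Hoxb2-202 with 2.85, Hoxb7-202 with 1.43, Hoxc8-202 with 1.80 and Hoxd8-202 with 1.65 FPKM. Hoxc9-201 had a mean of 3 FPKM, and the short Hoxc9-202 had RA values of 1.12, 1.59 and 1.36, HO values of 1.60, 0.0405 and 1.52 and HO-rWNT5A values of 1.66, 1.47 and 0.0560. For Hoxc9-202, HO replicate 2 and HO-rWNT5A replicate 3 were near 0 while the other libraries of their groups were not.

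The comparison of HO-rWNT5A with HO addressed the effect of the added WNT5A protein at 85% oxygen. No Hox gene passed, and 0.00723% of the 13831 genes did, which is 1 gene. At an unadjusted p under 0.05 there were 5 Hox genes (15.6%), against 9.2% of all genes. The smallest p values belonged to Hoxc6 with a log2 fold change of 0.26 ± 0.080, Hoxd3 with 0.28 ± 0.10 and Hoxa3 with 0.21 ± 0.077, each at a limma adjusted p of 0.5. The libraries did not overlap for 7 of 32 Hox genes (21.9%), against 13% of all genes.

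The comparison of HO-rWNT5A with RA combined both treatments. Here 4 of 32 Hox genes passed, against 4.26% of all genes. Hoxb6 was higher, with means of 58.0 against 47.9 FPKM and a log2 fold change of 0.27 ± 0.060 (limma, adjusted p = 0.0361). Hoxc10 was higher, 13.6 against 10.8 FPKM, by 0.32 ± 0.070 (limma, adjusted p = 0.0366). Hoxc6 was higher, 18.6 against 14.4 FPKM, by 0.35 ± 0.080 (limma, adjusted p = 0.0393). Hoxd4 was lower, 4.64 against 6.39 FPKM, with -0.39 ± 0.089 (limma, adjusted p = 0.0405). The libraries did not overlap for 10 of 32 Hox genes (31.2%), against 32.8% of all genes. This comparison shares its RA libraries with HO against RA and its HO-rWNT5A libraries with HO-rWNT5A against HO, so the 3 are not independent. The 3 rises were lost without any 1 of the 6 libraries, with limma adjusted p from 0.0589 to 0.14 for Hoxb6, 0.0848 to 0.132 for Hoxc10 and 0.0607 to 0.142 for Hoxc6. Hoxd4 passed without RA replicate 1 (limma, adjusted p = 0.0353) and was lost without each of the other 5, at up to 0.139. On protein-coding transcripts alone Hoxd4 changed by 0.02 (limma, adjusted p = 0.944), in the other direction, and Hoxc10 passed alone. Hoxc10-201 shares 166 exonic bases with Hoxc5-202, so part of its value is uncertain.

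**Figure D4:**
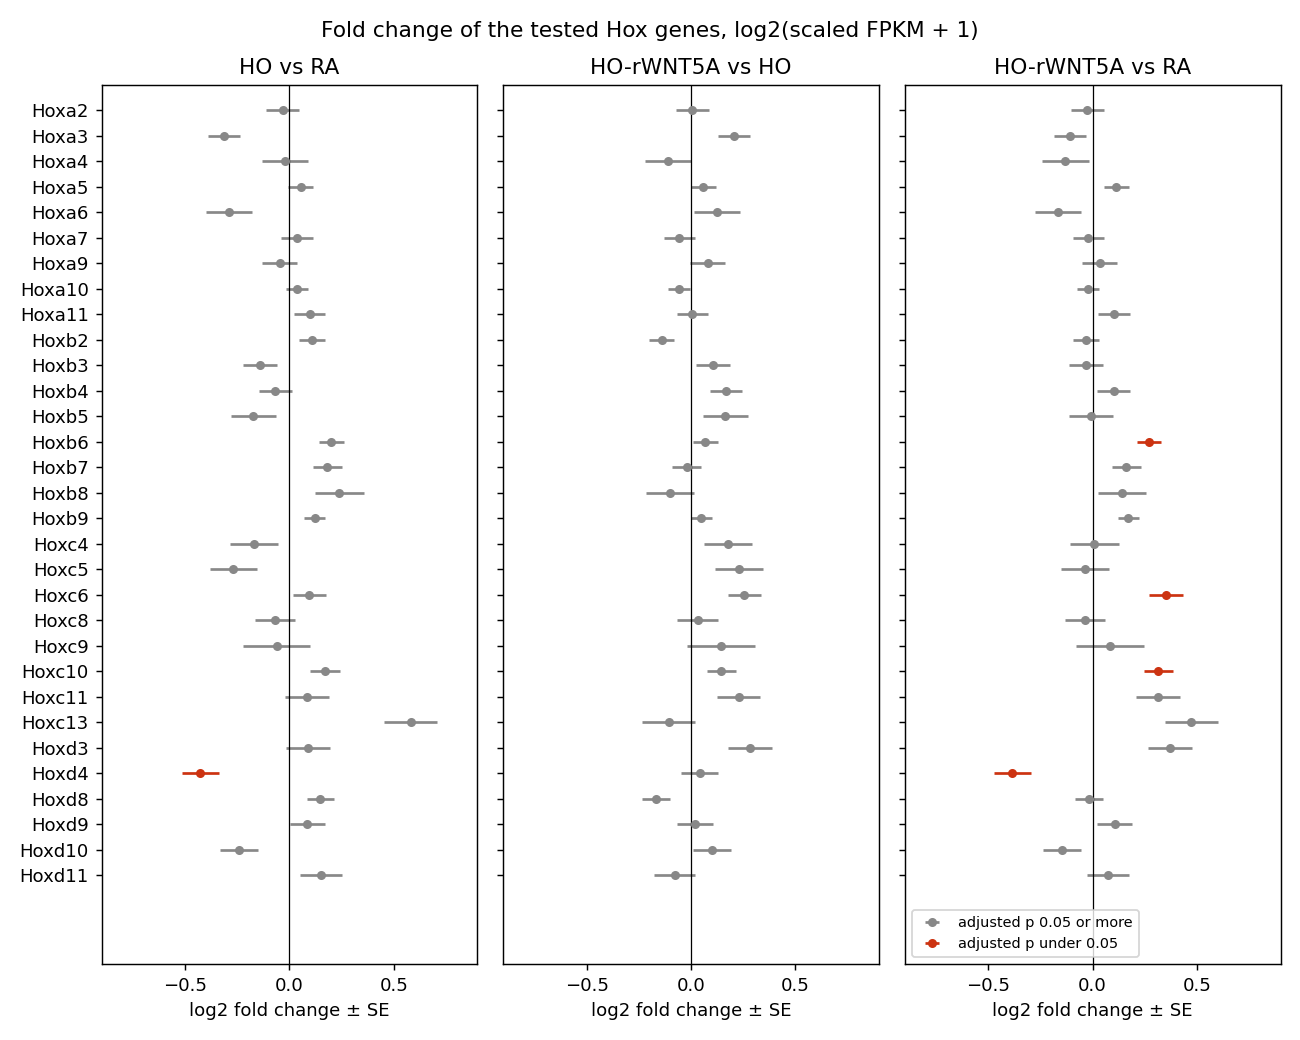
Log2 fold change with its SE for the 31 tested Hox genes of paralog groups 2 to 13 in 3 comparisons, on the log2(scaled FPKM + 1) scale, with genes past an adjusted p of 0.05 in red. Hoxd4 is red in 2 comparisons at -0.43 and -0.39, Hoxb6, Hoxc6 and Hoxc10 are red in HO-rWNT5A vs RA, and none is red in HO-rWNT5A vs HO.

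The summed Hox FPKM had a group mean of 359.2 ± 8.4 (RA), 371.8 ± 8.6 (HO) and 384 ± 5.2 (HO-rWNT5A; SD, n = 3). The median log2 fold change of the 32 tested genes was 0.05 in HO against RA, 0.05 in HO-rWNT5A against HO and 0.02 in HO-rWNT5A against RA, with 0.00 over all genes tested in each. The share of Hoxb was 53% ± 0.67 (RA), 55% ± 0.95 (HO) and 54.5% ± 0.55 (HO-rWNT5A). The share of Hoxc was 12.5% ± 0.23, 12.6% ± 0.51 and 13.9% ± 0.56 in the same order. These shares were not tested.

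Among the partners and regulators, no TALE, Polycomb and Trithorax, retinoic acid or trunk axis gene passed in HO against RA or in HO-rWNT5A against HO. The background for the counts in this paragraph is the share of all tested genes that passed. It was 1.97% in HO against RA, 0.00723% in HO-rWNT5A against HO and 4.26% in HO-rWNT5A against RA. In HO-rWNT5A against RA, 1 of 10 TALE genes was higher, Pbx4, with 1.83 against 0.863 FPKM (log2 fold change 0.60 ± 0.11, limma, adjusted p = 0.0200). The RA mean of Pbx4 lay under the filter of 1 FPKM, which its mean over all libraries, 1.25, passed through the HO-rWNT5A group, so this call is a description only. In the retinoic acid list of 12 tested genes, 1 was higher and 1 lower. Rara, a retinoic acid receptor, had 16.5 against 13 FPKM (0.32 ± 0.056, limma, adjusted p = 0.0164), and Dhrs3, an enzyme that lowers retinoic acid, had 13.6 against 19.6 FPKM (-0.50 ± 0.070, limma, adjusted p = 0.00567). None of 24 Polycomb and Trithorax genes or 6 trunk axis genes passed. Gm53 was higher by 0.41 ± 0.068 (limma, adjusted p = 0.0133), the 1 other gene of the clusters that passed among 11 tested. Of the 13 kidney genes tested, 1 passed in HO against RA and 1 in HO-rWNT5A against RA. Wt1 was lower in HO against RA by -0.41 ± 0.077 (limma, adjusted p = 0.0336) and Pax2 was higher in HO-rWNT5A against RA by 0.41 ± 0.064 (limma, adjusted p = 0.00979). Of the 8 pericyte and smooth muscle genes tested, only Notch3 passed in HO against RA, higher by 0.65 ± 0.13 (limma, adjusted p = 0.0349). The summed level of the whole list was 3028 to 3389 FPKM (RA), 2507 to 3415 (HO) and 2796 to 3219 (HO-rWNT5A). Whether the calls in this paragraph hold with a library left out was not tested. The part of these genes in the Hox results was not tested, and fewer cells of a type cannot be told apart from less RNA per cell.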

How the data were processed

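Libraries of total RNA were read as 150-base pairs and, per the labels' protocols, trimmed with Skewer 0.2.2, aligned with STAR 2.5.3a and assembled with StringTie 1.3.1, and transcripts were compared with gffcompare 0.9.9c. FastQC 0.11.2, DESeq2 and the builds hg38 and mm10 appear in the submitters' processing notes. The values deposited by the authors are FPKM for 143043 transcripts. Of 142351 Ensembl transcripts 141441 were found in GENCODE M21 (GRCm38), and FPKM was summed per gene. Each library was divided by its median ratio to the geometric mean over genes with at least 1 FPKM. The 13831 genes with a mean of at least 1 deposited FPKM entered limma 3.58.1 (R 4.3.3) as log2(scaled FPKM + 1). The fit used 9 libraries, 3 contrasts, a variance trend, two-sided tests, Benjamini-Hochberg adjustment and a threshold of 0.05. It was run on simulated data as a check of the code. The first run of that check missed its pass rule, and the rule was then rewritten. Which genes set the library factors was settled after a first version had been run. That version, with factors over all genes and the filter on scaled FPKM, is given among the alternatives. The members and lists were chosen with earlier results of these data known. Some results that the naming rule covers are not reported here. Each Hox gene past the threshold is named, or else the 3 with the smallest p, and list members are named by level or smallest p. Alternatives covered pseudocount, filter, scaling, variance, samples and the replicate block. Protein-coding transcripts alone, HO replicates 2 and 3 left out together, and the first version were chosen after seeing the data. FPKM gives no counts, so depths are rough and no count test was run. Tables and plots used Python, pandas, numpy and matplotlib.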

Additional observations from a re-analysis of the deposited data

How the results depend on the processing

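The number of Hox genes with at least 1 FPKM was 32 and stayed within 1.5 times of that under every scaling, left-out library and limit tried, the limit of 5 FPKM included (22), and cluster shares moved by less than their SD. Calls between groups were less stable. For HO against RA the main count was 1 Hox gene. It was 0 with no filter, with a mean of at least 0.1 FPKM, with equal totals, with equal protein-coding totals, with only the 2 groups compared, with protein-coding transcripts alone and without HO replicates 2 and 3 together, 2 with quantile normalization, no variance trend or robust variance, and 0 to 4 with a library left out. For HO-rWNT5A against RA the main count was 4. It was 0 with no filter or equal totals, 2 with a mean of at least 0.1 FPKM, equal protein-coding totals or no variance trend, 1 with FPKM as deposited or protein-coding transcripts alone, and 0 to 1 with a library left out. With only the 2 groups compared the count rose to 5, with Hoxd3 added. Quantile normalization kept 4, with Hoxd3 in place of Hoxb6. Hoxd4 in that comparison reversed to 0.02 on protein-coding transcripts alone. The cause was not tested. HO-rWNT5A against HO gave 0 Hox genes under every alternative run. With library factors over all genes and the filter on scaled FPKM, the version computed first, 13813 genes were tested, 246, 1 and 544 genes passed in the 3 comparisons, and 1, 0 and 4 Hox genes passed.

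Over all genes, HO against RA gave 273 calls, 167 higher and 106 lower. These were 69 with no filter, 67 with the 2 groups alone, 147 on protein-coding transcripts alone, 23 without HO replicates 2 and 3, and 2 to 706 with a library left out. The split was 103 higher and 179 lower for FPKM as deposited and 26 and 30 for equal totals. HO-rWNT5A against RA gave 589, 331 higher and 258 lower, and 222 with no filter, 1330 with the 2 groups alone, 124 to 202 with a library left out, 209 and 615 for FPKM as deposited and 93 and 164 for equal totals. HO-rWNT5A against HO gave 1, and 0 with no filter, 3 with the 2 groups alone, 1 to 27 with a library left out and 0 without HO replicates 2 and 3.

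Deviations of same-numbered libraries from their group means correlated from -0.118 to 0.280. Differently numbered libraries were not compared in this way, so whether the replicate numbers pair the libraries is not settled. With the replicate block, 0 Hox genes passed in HO against RA (116 of all genes), 0 in HO-rWNT5A against HO (2) and 3 in HO-rWNT5A against RA (393), Hoxb6, Hoxc10 and Hoxd4. Depth limits the genes under 1 FPKM, where 42.6 to 53.0 fragments or fewer lie behind a value.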
